A study of Mus musculus with 8 samples.

Results

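Inflammasome components were followed as 8 genes chosen by name: the sensors Nlrp3, Nlrc4, Aim2 and Mefv, the adaptor Pycard, the proteases Casp1 and Casp4, and the pore protein Gsdmd. All array probe sets annotated to these symbols were taken, which gave 9 probe sets of 45037 and covered 7 of the 8 genes. No probe set was annotated to Nlrc4, so that gene has no value here. Of 18193 genes with a probe set, 13196 were bright enough to be tested, and these included 6 of the 7 measured components. The exception was Pycard. The floor for testing was the 40th percentile of each array, 5.21 to 5.28 on the log2 scale of the deposited values.

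The study grew 2 established mouse lines apart or together. CT26, labelled as colon tumour epithelial cells, and RAW264 macrophages, called RAW below, were each cultured alone or in a transwell co-culture, where a porous membrane let secreted molecules through but kept the cells apart. Inserts holding RAW cells joined the wells 8 h after plating, no other agent or genetic change is named for any group, and each line was measured in its own RNA on 2 arrays per condition. The 4 groups are named CT26 alone, RAW alone, CT26 co-culture and RAW co-culture, and the replicate numbers 1 and 2 stand for 2 performances of the experiment, called experiments 1 and 2. CT26 cells were detached with trypsin whereas lysis of RAW cells took place in the insert, so line and harvest cannot be told apart. Each line is a single established culture, so p-values measure the spread between 2 experiments and not between animals.

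Inflammasomes are protein platforms that sense infection or damage in the cytosol. A sensor such as NLRP3 gathers the adaptor ASC, the product of Pycard, which in turn recruits caspase-1. Caspase-1 matures the cytokines IL-1β and IL-18 and cuts gasdermin D, whose freed end forms pores in the plasma membrane. Caspase-11, encoded by Casp4 in the mouse, binds bacterial lipopolysaccharide directly and also cuts gasdermin D. In macrophages transcription of Nlrp3 and Casp4 is known to be raised by NF-κB and interferon signalling, and the RAW line is widely used as a macrophage that lacks ASC. These are matters of background, and the arrays measured RNA only, not cleavage, cytokine release or cell death.

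RefSeq promoter windows on GRCm38.p6, each from 250 bases before to 50 bases after a transcription start, were found for 7 of the 8 genes, in 9 windows. Shown are the upstream Nlrp3 window (chr11:59541319-59541618, plus strand), the first of a pair of overlapping Casp4 windows (chr9:5308599-5308898, plus strand) and the Pycard window (chr7:127993818-127994117, minus strand). Levels of Nlrp3 and Casp4 set the lines apart, and Pycard lay under the floor. Casp1 set the lines apart as well, and its window is not printed. For contrast, Trim30a (chr7:104465144-104465443, minus strand) and Gbp7 (chr3:142530086-142530385, plus strand) are neighbouring pathway genes with large co-culture differences in RAW. Neither passed without a block for the experiment, and Ifi202b, the only pathway gene that did, is not printed. Capitals mark matches, on either strand, to an interferon-stimulated response element (ISRE, GAAA repeated after 2 bases of any kind), a STAT site (GAS, TTCNNNGAA), the κB consensus or a PU.1 site (GAGGAAGT), and overlapping κB matches run together.
Nlrp3: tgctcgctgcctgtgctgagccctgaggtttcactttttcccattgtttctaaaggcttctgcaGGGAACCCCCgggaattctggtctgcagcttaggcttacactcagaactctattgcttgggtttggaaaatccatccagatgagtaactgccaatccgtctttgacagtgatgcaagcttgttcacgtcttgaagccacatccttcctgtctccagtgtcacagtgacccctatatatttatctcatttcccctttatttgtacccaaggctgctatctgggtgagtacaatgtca
Casp4: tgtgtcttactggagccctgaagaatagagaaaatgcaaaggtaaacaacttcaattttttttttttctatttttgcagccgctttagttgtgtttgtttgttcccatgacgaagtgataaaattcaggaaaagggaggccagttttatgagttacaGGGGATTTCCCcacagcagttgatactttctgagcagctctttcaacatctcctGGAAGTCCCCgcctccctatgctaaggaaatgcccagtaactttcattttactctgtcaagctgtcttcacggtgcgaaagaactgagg
Pycard: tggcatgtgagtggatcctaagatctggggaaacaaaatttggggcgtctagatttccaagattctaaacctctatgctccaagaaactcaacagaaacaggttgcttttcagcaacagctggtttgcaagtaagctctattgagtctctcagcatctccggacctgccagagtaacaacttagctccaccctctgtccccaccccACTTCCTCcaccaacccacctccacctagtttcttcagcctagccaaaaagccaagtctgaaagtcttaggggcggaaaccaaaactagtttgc
Trim30a: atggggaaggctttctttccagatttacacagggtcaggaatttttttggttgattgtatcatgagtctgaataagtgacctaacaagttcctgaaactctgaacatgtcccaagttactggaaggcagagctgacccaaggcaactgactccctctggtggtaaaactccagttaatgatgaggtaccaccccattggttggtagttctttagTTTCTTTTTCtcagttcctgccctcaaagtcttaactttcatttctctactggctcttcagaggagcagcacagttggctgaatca
Gbp7: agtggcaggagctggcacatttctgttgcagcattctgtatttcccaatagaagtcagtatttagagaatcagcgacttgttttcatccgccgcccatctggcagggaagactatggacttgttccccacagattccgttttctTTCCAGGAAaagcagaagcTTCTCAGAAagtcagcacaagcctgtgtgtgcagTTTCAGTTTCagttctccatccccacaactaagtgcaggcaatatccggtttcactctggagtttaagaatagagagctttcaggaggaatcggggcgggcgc

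No inflammasome window held an ISRE or a GAS match (0 of 9 each), against 3.44% and 8.3% of all 32851 windows of the same length. The κB consensus was matched in 3 of 9 windows, those of Casp4 and the upstream one of Nlrp3, against 8.46% of all windows, and both Casp4 windows share the same matches. In the printed Casp4 window they begin at -93, -92 and -39, counted in bases from the start, and in Nlrp3 at -186. The PU.1 letters occurred in 2 of 9 windows, in Aim2 and, at -44, in Pycard, against 3.2% of all windows. Every printed window holds a match. The windows of Casp1, Nlrc4 and Mefv and the downstream Nlrp3 window, not printed, matched none of these motifs. In the printed Trim30a and Gbp7 windows the ISRE match begins at -36 and -53. The window of Ifi202b, which is not printed, held no ISRE match and a GAS match at -148. Of 18 windows for the pathway genes named below, 8 held an ISRE match, and those genes were named in part for their co-culture differences. The 8 are both windows of Mndal and of Trim30a, those of Gbp7, Gbp2 and Il1rap, and the upstream window of Gbp3. The downstream Gbp3 window held none. The GTPase genes Gbp7, Gbp3 and Gbp2 were listed as interferon-inducible, so the count is no test of a difference from the components. These matches describe letters in short windows and are not binding sites.

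Macrophage markers were strong in RAW, and epithelial markers were only partly present in CT26. RAW alone and CT26 alone form the baseline comparison, in which 14 of 14 tested macrophage markers were higher in RAW. Their mean level was 5.84 to 5.86 in the CT26 arrays and 12.6 to 12.8 in the RAW arrays (log2, 8 arrays), with 7 to 10 of 14 above the floor in CT26. It did not separate CT26 co-culture (5.84 and 5.86) from CT26 alone (5.84 in each). Of 8 epithelial markers 5 were tested and 3 of these, Krt18, Krt20 and Tjp1, were higher in CT26. The brightest probe sets of Krt8 and Epcam were above the floor on all 8 arrays and were not called (RAW minus CT26 -0.13 ± 0.13 and 0.01 ± 0.14, SE). Their other probe sets lay under the floor on every array, at 4.35 to 5.15 for Krt8 and 4.74 to 4.96 for Epcam. These values do not show that either line expresses the 2 genes. Cdh1, Vil1 and Cldn7, which define intestinal epithelium, were too dim to be tested, while 5 of 5 tested matrix markers were higher in CT26. Of 3 tested lymphoid markers 0 differed at baseline, and S100a8, known from neutrophils, was called higher in RAW and lay under the floor on all 4 CT26 arrays. In bulk RNA, fewer cells that carry a transcript and less transcript per cell cannot be told apart.

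RAW cells grown alone held more RNA of caspase-11, NLRP3, caspase-1 and gasdermin D than CT26 cells did. Of the 6 tested components, 4 were higher in RAW at baseline and 0 were lower, by limma with Benjamini-Hochberg adjusted p under 0.05 over 13196 genes. Among all tested genes 17% were called higher in this comparison and 17.6% lower, 34.6% in all. In 5 of 6, Mefv included, both RAW alone arrays lay above both CT26 alone arrays, as in 30.2% of all genes. The median difference was 1.36 log2 units over the 6 components and -0.05 over all tested genes. With the experiment as a block, shared by the lines or separate in each, 5 of 6 were called higher, Mefv being the addition, where 25.5% and 28.3% of all genes were.

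**Figure D1:**
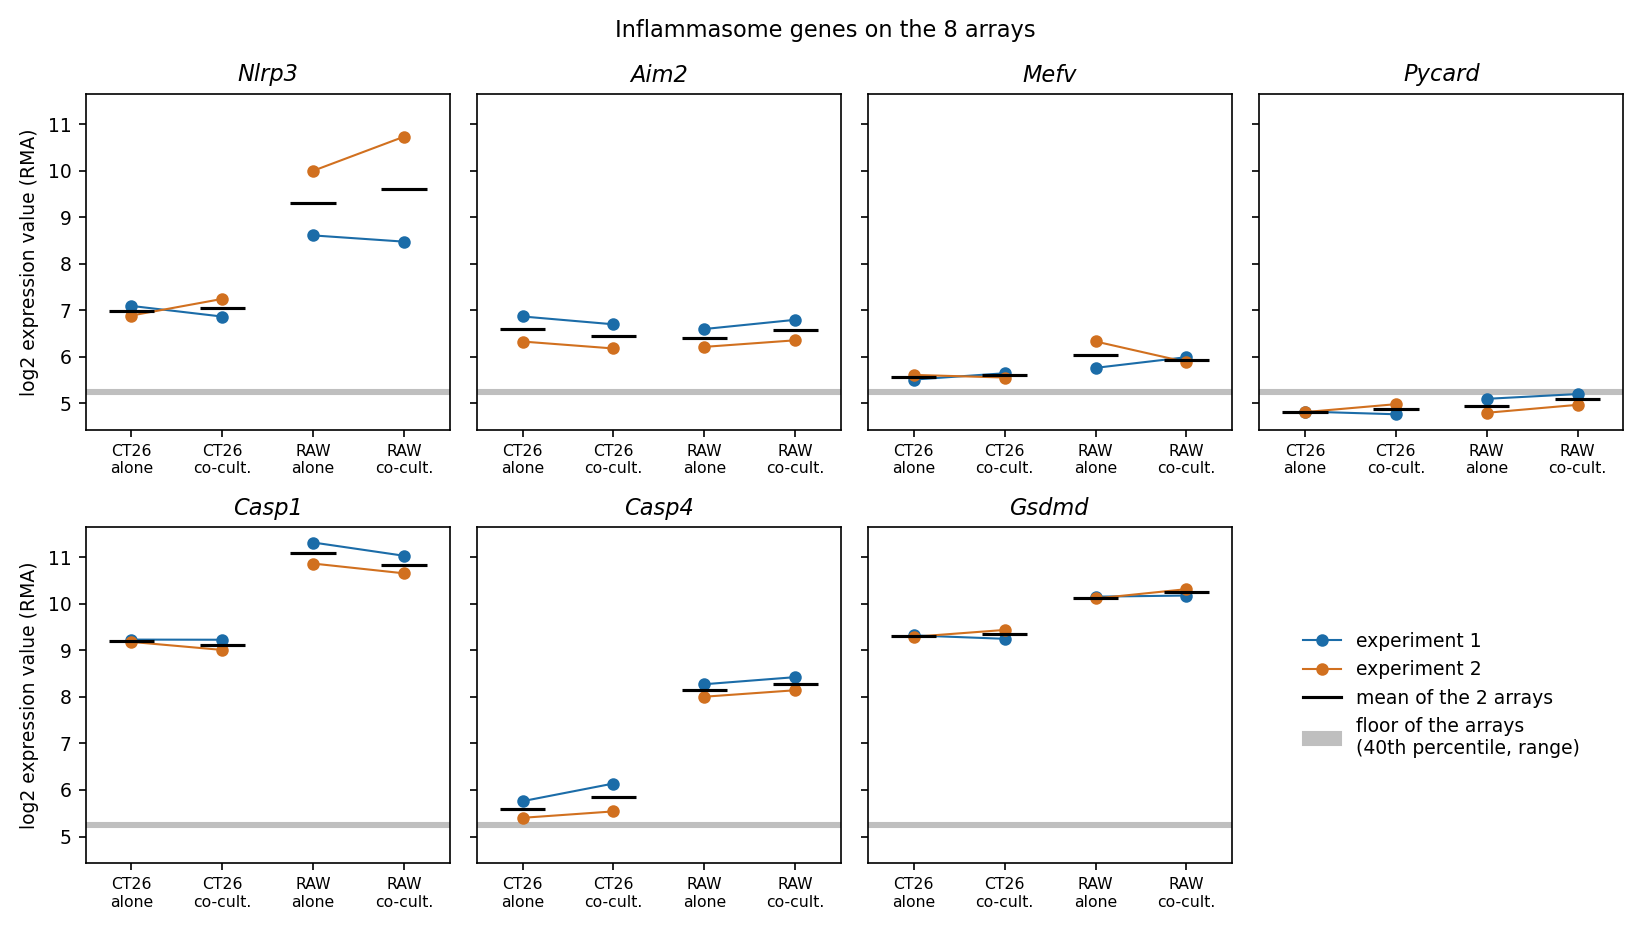
Log2 expression values (RMA) of the 7 measured components, 1 panel per gene, on the 8 arrays. Points are arrays joined within an experiment, black bars are means of 2 arrays, and the grey band is the range of the floor (5.21 to 5.28). Levels are comparable within a panel only. Nlrp3, Casp1, Casp4 and Gsdmd lie higher in RAW, and Pycard lies under the floor throughout.

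NLRP3 is the sensor of ion loss, crystals and membrane damage. In CT26 alone Nlrp3 stood at 7.09 and 6.89 in experiments 1 and 2, and in CT26 co-culture at 6.86 and 7.24 (log2). In RAW alone it stood at 8.61 and 10.00, and in RAW co-culture at 8.47 and 10.73. All 4 RAW arrays lay above all 4 CT26 arrays, and the RAW arrays split by experiment rather than by culture condition. The mean was 9.30 ± 0.98 in RAW alone against 6.99 ± 0.15 in CT26 alone (SD, n = 2), a difference of 2.31 ± 0.73 (SE), or 4.97-fold (limma, adjusted p = 0.0489). That call is close to the threshold. It passed with a shared block (adjusted p = 0.00851) or a block per line (adjusted p = 8.4e-05). It ended with every probe set tested (adjusted p = 0.0593) or with no filter on dim genes (0.0579). It also ended without RAW alone 2 (difference 1.62, adjusted p = 0.219), CT26 alone 1 (0.134) or 2 (0.172), or CT26 co-culture 1 (0.0703) or 2 (0.0704).

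The split by experiment was wide in RAW for Nlrp3 alone among the components. Its value in experiment 2 exceeded that in experiment 1 by 1.39 in RAW alone and 2.26 in RAW co-culture, while in CT26 the differences were -0.21 and 0.38. A shift of more than 1 log2 unit upwards in both RAW conditions was seen in 121 of 13196 genes (0.917%), and in 1 of the 6 components. The experiment is a label of the study and was not itself tested. Casp1, Casp4 and Aim2 were lower in experiment 2 in all 4 groups, as were 21.8% of tested genes.

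AIM2 binds double-stranded DNA in the cytosol. Aim2 stood at 6.87 and 6.33 in CT26 alone, 6.70 and 6.18 in CT26 co-culture, 6.60 and 6.21 in RAW alone, and 6.79 and 6.35 in RAW co-culture (log2). The 4 groups overlapped, and experiment 1 was the higher in each. RAW alone differed from CT26 alone by -0.19 ± 0.28 (SE), with a 95% interval from -0.85 to 0.47 (limma, adjusted p = 0.648). Aim2 was lower in RAW alone in both experiments, as were 45.3% of all genes, and the lines did not differ beyond their spread.

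Pyrin, encoded by Mefv, senses bacterial toxins that inactivate RhoA. Mefv stood at 5.51 and 5.61 in CT26 alone, 5.64 and 5.55 in CT26 co-culture, 5.76 and 6.33 in RAW alone, and 5.99 and 5.89 in RAW co-culture (log2). These values lay close above the floor, where RMA compresses differences, and all 4 RAW arrays were above all 4 CT26 arrays. The difference between RAW alone and CT26 alone was 0.49 ± 0.19 (SE) and did not pass (limma, adjusted p = 0.0956). With a block it passed (adjusted p = 0.0486 shared, 0.0324 per line), as it did without RAW alone 1 (difference 0.77, adjusted p = 0.0125).

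The adaptor gene Pycard was under the floor in every array. Its brightest probe set gave 4.82 and 4.81 in CT26 alone, 4.76 and 4.98 in CT26 co-culture, 5.10 and 4.80 in RAW alone, and 5.20 and 4.97 in RAW co-culture (log2). The other probe sets lay between 4.46 and 4.83 and between 3.91 and 4.33. None of the 3 probe sets exceeded the 40th percentile in any of 8 arrays, so Pycard was not tested, and RAW macrophages did not stand out from CT26 cells. Pycard RNA was therefore not detectable on these arrays, which is not the same as absent. The adaptor gene was dark in the line in which Nlrp3, Casp1 and Casp4 were high.

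Caspase-1 is the protease that ASC recruits. Casp1 stood at 9.23 and 9.18 in CT26 alone, 9.23 and 9.01 in CT26 co-culture, 11.32 and 10.87 in RAW alone, and 11.03 and 10.66 in RAW co-culture (log2). RAW and CT26 arrays did not overlap. The difference between RAW alone (11.09 ± 0.32, SD, n = 2) and CT26 alone (9.21 ± 0.03) was 1.88 ± 0.20 (SE), or 3.69-fold (limma, adjusted p = 0.000364).

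Caspase-11 showed the widest of the component differences between the lines, ahead of Nlrp3 by less than the SE of the Nlrp3 difference. Casp4 stood at 5.76 and 5.40 in CT26 alone and 6.14 and 5.54 in CT26 co-culture, near the floor, against 8.27 and 8.00 in RAW alone and 8.42 and 8.14 in RAW co-culture (log2). The lines did not overlap. RAW alone exceeded CT26 alone by 2.56 ± 0.24 (SE), or 5.89-fold (limma, adjusted p = 0.000198), and since CT26 lay near the floor this fold may be understated.

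Gasdermin D is the shared substrate and the pore. Gsdmd stood at 9.32 and 9.29 in CT26 alone, 9.25 and 9.44 in CT26 co-culture, 10.15 and 10.11 in RAW alone, and 10.18 and 10.32 in RAW co-culture (log2). It was well above the floor in each line and higher in RAW alone by 0.83 ± 0.12 (SE), or 1.77-fold (limma, adjusted p = 0.0019), which was the smallest of the 4 called differences.

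Co-culture changed none of these genes detectably in RAW. By limma 0 of the 6 tested components passed in co-cultured RAW cells, where 0.25% of all tested genes (33) did, and 0 had an unadjusted p under 0.05, against 5.26% of all genes. With a shared block 0 of 6 passed, against 1.11% of all genes, and with a block per line 0 of 6, against 3.56%. With the latter 1 of 6, Casp1, had an unadjusted p under 0.05, against 18.3%. The median change was 0.13 over the components and 0.01 over all tested genes. Among macrophage markers in RAW co-culture, 0 of 14 passed without a block and 1 did with a block per line, Adgre1, lower by -0.75 ± 0.30 (SE; adjusted p = 0.916 and 0.0306). S100a8 had -0.99 ± 0.18 (adjusted p = 0.147, and 0.0246 with its own block in each line). The part of these shifts in the component values was not tested. The count of 33 rests on few arrays: it was 30 without either CT26 co-culture array and 2 to 7 without any other array.

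Among the components 3 of 6 were higher in both experiments in RAW, namely Aim2, Casp4 and Gsdmd, and 1 was lower in both, Casp1, where the shares of all genes were 32.5% and 29.1%. Casp1 had -0.29 in experiment 1 and -0.21 in experiment 2. Its mean was -0.25 ± 0.20 (SE), with a 95% interval from -0.72 to 0.23 without a block. That fit leaves the shift between experiments in the error. With a block per line the SE for Casp1 was 0.09 (limma, unadjusted p = 0.0273, adjusted p = 0.208). The intervals for Casp4 and Gsdmd are also from the fit without a block. Casp4 had 0.15 and 0.14 (mean 0.15, interval -0.42 to 0.72). Gsdmd had 0.02 and 0.20 (mean 0.11, interval -0.18 to 0.40). It was the only component whose RAW groups did not overlap, which held for 14.2% of all genes in that direction.

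The sensors did not pass either. Nlrp3 had -0.13 in experiment 1 and 0.73 in experiment 2, a mean of 0.30 ± 0.73 (SE) with an interval from -1.45 to 2.05 without a block. With a block per line, which takes up the shift between experiments, the SE was 0.22 (adjusted p = 0.523). Aim2 had 0.20 and 0.14 (mean 0.17, interval -0.49 to 0.83). Mefv had 0.23 and -0.44, opposite signs around a mean of -0.11 (interval -0.56 to 0.35).

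**Figure D2:**
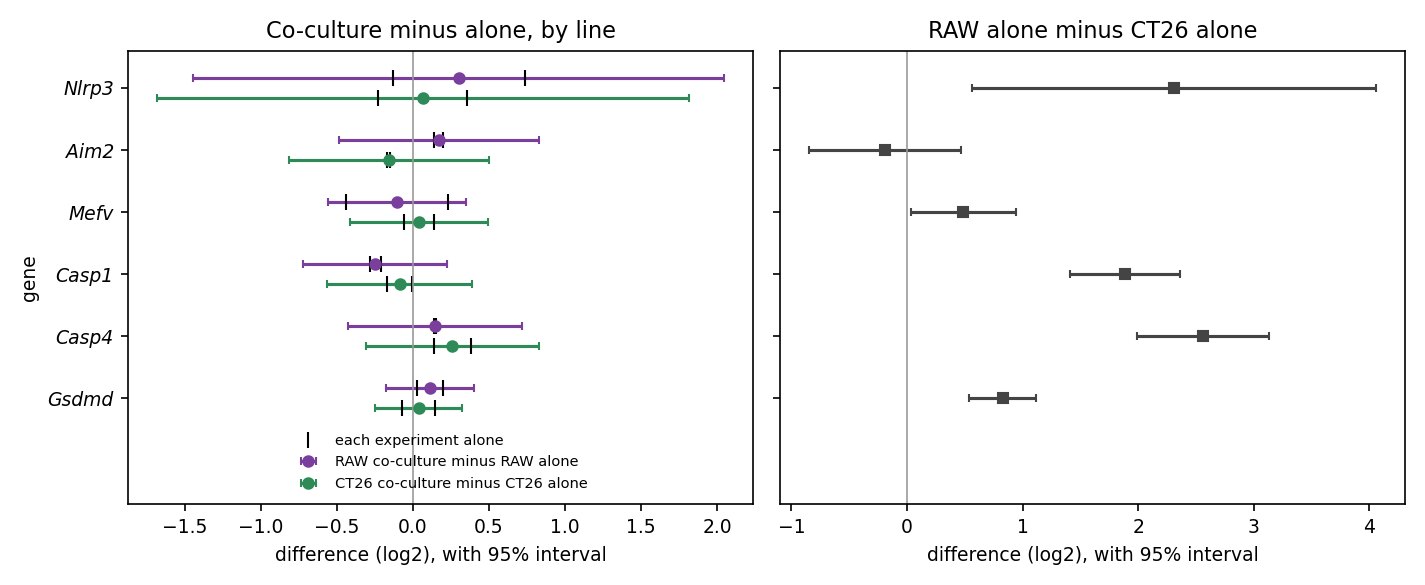
Differences in log2 units for the 6 tested components, with 95% intervals from the limma fit without a block. Left, co-culture minus alone in RAW (purple) and CT26 (green), with black ticks for each experiment. Every interval in that panel includes 0, and these intervals do not use the pairing of arrays by experiment. Right, RAW alone minus CT26 alone; Nlrp3, Casp1, Casp4 and Gsdmd were called higher in RAW.

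The components did not pass in co-cultured CT26 cells either. By limma 0 of 6 were called, as were 0% of all tested genes, and 0 had an unadjusted p under 0.05, against 0.811% of all genes. With a block per line 1 of 6, Casp4, had one, against 5.7% of all genes. Casp4 was the only component higher in both experiments (0.38 and 0.14, mean 0.26, interval -0.31 to 0.83), a direction shared by 23.8% of all genes. Aim2 (-0.17 and -0.15) and Casp1 (-0.003 and -0.17) were lower in both, as were 30.1% of all genes. Nlrp3 had -0.23 and 0.36, Gsdmd -0.07 and 0.15, and Mefv 0.14 and -0.06, each with opposite signs in the experiments.

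The co-culture changes of the lines were then compared with each other. The difference between them was called for 0 of 6 components and for 0.00758% of all genes (1 gene), and 0 components had an unadjusted p under 0.05, against 2.49%. With a block per line 1 of 6 did, Aim2, against 11.4%, and with a shared block Aim2 again, against 6.73%. Aim2, higher in both experiments in RAW and lower in both in CT26, had the largest difference, 0.33 ± 0.39 (SE), with an interval from -0.60 to 1.26 (limma, adjusted p = 1.00 without a block, 0.345 if each line had its own). Without a block, the intervals for Gsdmd (-0.33 to 0.48) and Casp1 (-0.83 to 0.51) were narrower than that for Nlrp3 (-2.24 to 2.71).

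Genes around the inflammasome were examined in 6 lists with 53 tested members. In RAW 1 of the 53 was called higher in co-culture and 0 lower, against 0.167% and 0.0834% of all genes, and with a block per line 5 were higher and 0 lower, against 1.55% and 2.01%. In both experiments 27 were higher and 14 lower (50.9% and 26.4%), against 32.5% and 29.1% of all genes. In CT26 0 of 53 passed, with or without a block, as did 0% of all genes.

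**Figure D3:**
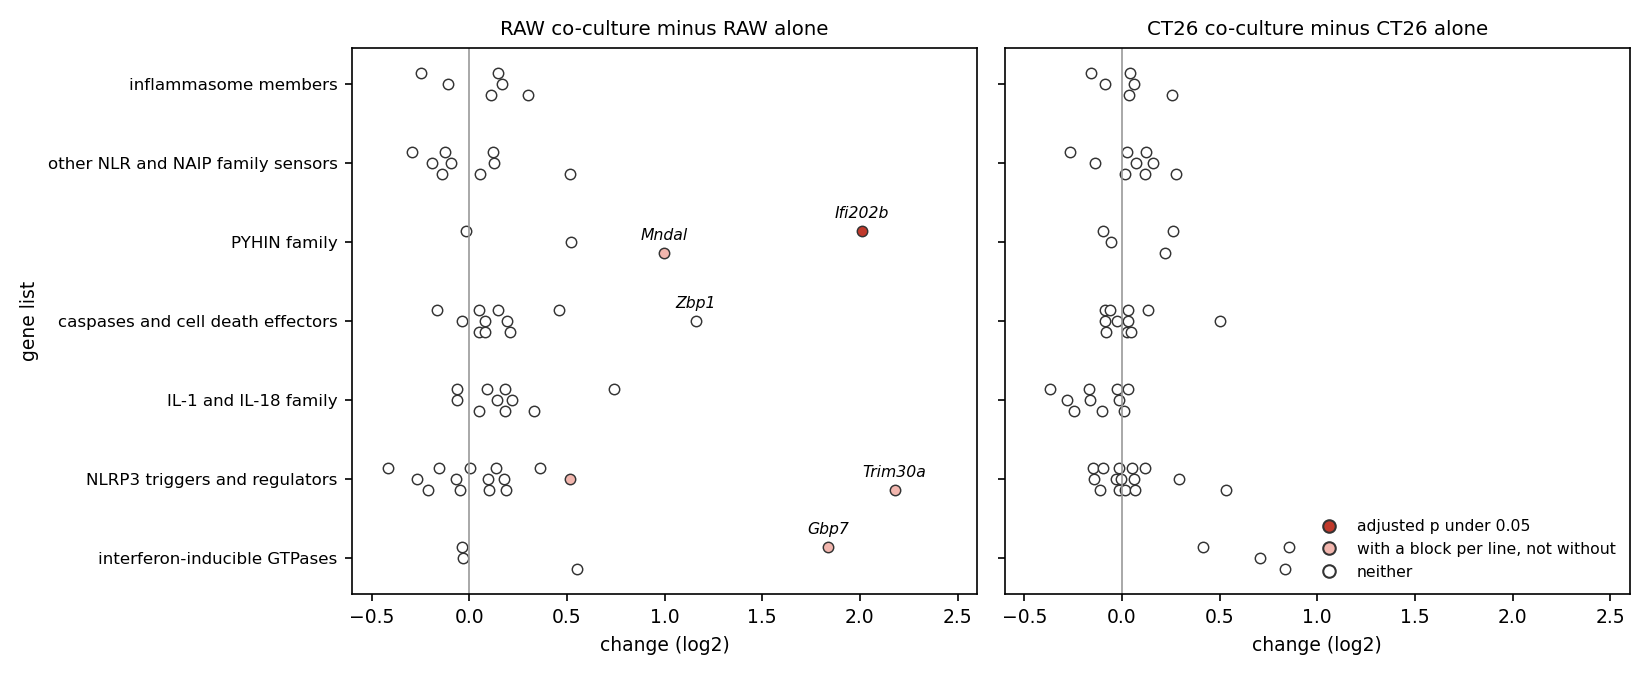
Co-culture change (log2) of each tested gene, by list, in RAW (left) and CT26 (right). Filled points passed without a block, pale points with a block per line but not without one, and vertical offsets only separate points. The inflammasome components lie between -0.25 and 0.30 in RAW, while Trim30a, Ifi202b and Gbp7 lie at 1.84 or above.

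The PYHIN family, to which Aim2 belongs, held the called gene. Ifi202b, which encodes a DNA-binding protein without a pyrin domain known to restrain AIM2, rose in co-cultured RAW cells by 2.01 ± 0.25 (SE), or 4.03-fold, from 8.93 ± 0.09 to 10.94 ± 0.25 (SD, n = 2; limma, adjusted p = 0.0419). Its level in CT26 was higher than in either RAW group, at 11.71 ± 0.23 alone and 11.93 ± 0.47 in co-culture. The call in RAW ended with every probe set tested (adjusted p = 0.0819) and without either CT26 alone array (0.113 and 0.112) or any RAW array (0.164 to 0.263). Mndal, another family member, had 1.00 ± 0.48 and passed if each line had its own block (adjusted p = 0.0117) but not with a shared one (0.152). Ifi204 had 0.52 ± 0.46. Members of this family are near-identical copies in places and these probe sets can share transcripts, so the genes may not be fully separated. Aim2 itself had 0.17 ± 0.28.

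Among triggers and regulators of NLRP3, 0 of 15 passed without a block, against 0.25% of all genes, and 2 were higher with a block per line, against 1.55%. Trim30a, a negative regulator of NLRP3, stood at 7.39 and 7.41 in RAW alone and 9.44 and 9.71 in co-culture. Its difference was 2.18 ± 0.51 (SE; limma, adjusted p = 0.341 without a block, 0.0732 with a shared block, 0.000407 if each line had its own block), and its other probe set had 2.27. Txnip, a thioredoxin inhibitor that binds NLRP3, had 0.51 ± 0.32 (adjusted p = 0.0346 with a block per line, 0.187 with a shared block). Ptpn22, a phosphatase that acts on NLRP3, had -0.42 ± 0.24.

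Interferon-inducible GTPases, which open pathogen membranes to caspase-11 and AIM2, had 4 tested members. Gbp7 had 1.84 ± 0.34 in RAW (adjusted p = 0.17 without a block, 0.0144 with a shared block, 0.00431 if each line had its own), from 6.07 and 5.34 to 7.55 and 7.54, and its dimmer probe set had 0.79. Gbp3 had 0.55 ± 0.32 and Gbp2 was under the floor on all 4 RAW arrays. In CT26 all 4 were higher in both experiments, a direction shared by 23.8% of all genes, and none passed. Gbp2 and Gbp2b met the filter on dim genes only through CT26 co-culture, so the filter itself favoured that direction for them. There Gbp2b had 0.85 ± 0.35, Gbp2 0.84 ± 0.19, Gbp3 0.71 ± 0.32 and Gbp7 0.42 ± 0.34. Gbp2 stood at 5.22 and 5.03 in CT26 alone, under the floor, and at 6.18 and 5.74 in CT26 co-culture. For Gbp2b the values were 5.49 and 4.97 in CT26 alone, and 6.64 and 5.54 in CT26 co-culture.

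The remaining lists held no called gene in RAW. Of 11 caspases and death effectors, Zbp1, a nucleic acid sensor that engages RIPK3, had 1.16 ± 0.31 (adjusted p = 0.499 without a block, 0.175 with a shared block, 0.0578 if each line had its own), though its other probe set had 0.14. Mlkl, the pore protein of necroptosis, had 0.46 ± 0.15 and its kinase Ripk3 0.21 ± 0.22. Of 10 IL-1 and IL-18 family genes, Il18, a substrate of caspase-1, had 0.74 ± 0.38, Il18rap 0.33 ± 0.20 and Il1rap 0.22 ± 0.15. Of 9 other NLR and NAIP sensors, Nlrc5, a regulator of MHC class I genes, had 0.52 ± 0.25, Nlrc3 -0.29 ± 0.27 and Nlrp10 -0.19 ± 0.18. The other Nlrc3 probe set had -0.71.

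Genes whose values over the 8 arrays ran closest to each tested component were found by the root mean square difference of profiles centred on their own mean. For Nlrp3 they were Gas6 (0.317 log2 units), Plekho2 (0.326) and Epop (0.330), with Pearson r of 0.972 to 0.974. These genes also separated the lines and were higher in RAW in experiment 2. For Casp4 they were Phyh (0.157), Vwa5a (0.175) and Tbc1d23 (0.182), and for Casp1 Ccdc90b (0.0739), Ciao2a (0.0916) and Atpif1 (0.0961). Gsdmd was nearest to Tsnax (0.0641), Toe1 (0.0645) and Ubfd1 (0.0672), Aim2 to Ilf2 (0.0617), 0610038B21Rik (0.0794) and Cntd1 (0.0797), and Mefv to 1500015A07Rik (0.0624), Rundc1 (0.0724) and Rmc1 (0.0812). The points share 2 lines and 2 experiments, so these likenesses are descriptions and carry no test.

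**Figure D4:**
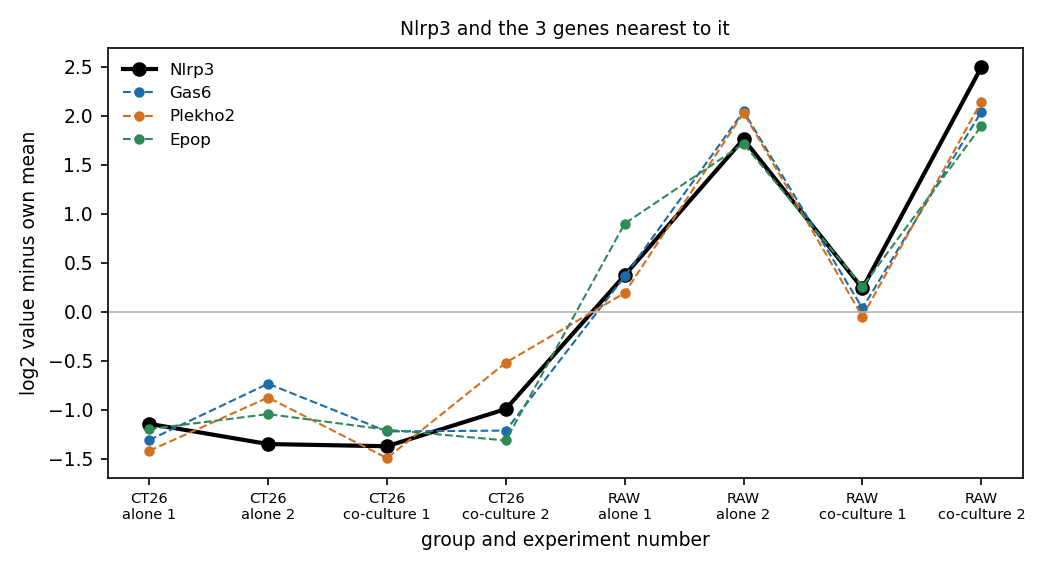
Log2 values of Nlrp3 and of its 3 nearest genes minus each gene's own mean, for the 8 arrays in order of group and experiment number. All 4 genes lie higher in RAW, and within RAW higher in experiment 2 than in experiment 1.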

How the data were processed

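Biotin-labelled cRNA from 5 µg of total RNA was read on 8 single-colour Affymetrix arrays. The authors deposited log2 values, and the submitters' processing notes name RMA and affy for them, with versions not given in the sources used here. RMA compresses low signals, and the near-equal array medians (5.88 to 5.94 log2 units) leave no trace of a change in RNA content per cell. Of 45101 probe sets 64 were controls. Of the rest 34945 had 1 gene symbol in the platform annotation, 932 had several and 9160 were not listed there; 34741 matched RefSeq genes of GRCm38.p6 by Entrez identifier and 0 symbols changed. A gene was its brightest probe set with 1 symbol. It was tested if above the 40th percentile of the array (5.21 to 5.28 log2 units) in each array of 1 group or more.

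A model of 4 group means without a block was fitted to 8 arrays with limma 3.58.1 in R 4.3.3 (4 residual degrees of freedom), two-sided, Benjamini-Hochberg adjusted over 13196 genes at 0.05. The labels number the 2 experiments, and deviations of same-numbered arrays correlated at 0.484 to 0.765 between groups, so the numbers pair the arrays. Fits with a shared replicate block (3 residual degrees of freedom) or 1 per line (2) stand beside results they change. A block takes the shift between experiments out of the error, and the fit without one leaves it in. In each fit the 4 groups share 1 estimate of the spread per gene, so the spread in RAW enters the CT26 intervals too. Other alternatives were averaged probe sets, all probe sets tested, no or a stricter filter, cyclic loess, a variance trend and leaving out each array. The fit without a block was tried on simulated data with independent noise on each array and no shift between experiments. That trial therefore does not cover arrays paired by experiment, as these are.

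The components and gene lists were chosen with earlier results of these data known. Pathway genes were named if past the threshold in a co-culture comparison, filled to 3 per list by the largest absolute change in RAW. Promoter sequences are from RefSeq. The array number limits the precision of every value.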

Additional observations from a re-analysis of the deposited data

How the results depend on the processing

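No component was called in either co-culture comparison, or in the difference between them, under any alternative run, and Casp1, Casp4 and Gsdmd were called higher in RAW at baseline (RAW alone minus CT26 alone) under all of them. The number of components called in that comparison was 4, with 3 to 5 when 1 array was left out. Counts over all genes moved with the replicate block. In RAW the 33 calls numbered 146 when the lines shared the block, 470 when each had its own, and 2 to 30 without 1 array. The 1 call for the difference between the lines became 11 and 98 with those blocks, 4 with every probe set tested, 4 with a variance trend and 0 to 2 without 1 array. The 4563 calls between the lines became 6978 and 7735 with the blocks and 8629 with every probe set tested, where more features enter. The block changed no component's call other than that of Mefv between the lines.

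Leaving out 1 array breaks the pairing, and small changes, none of them called, then turned sign. In RAW they ranged from -0.83 to 1.43 for Nlrp3, -0.051 to 0.39 for Aim2, -0.39 to 0.18 for Mefv, -0.19 to 0.11 for Gbp2, -0.075 to 0.49 for Ripk3 and -0.39 to 0.0037 for Nlrp10. In CT26 they ranged from -0.13 to 0.25 for Nlrp3, -0.43 to 0.11 for Aim2, -0.010 to 0.089 for Mefv, -0.20 to 0.022 for Casp1, -0.041 to 0.56 for Casp4, -0.058 to 0.13 for Gsdmd, -0.037 to 0.87 for Gbp7, -0.23 to 1.29 for Trim30a and -0.11 to 0.55 for Ifi202b. The difference between the lines' changes ranged from -0.89 to 1.36 for Nlrp3, -0.43 to 0.14 for Mefv, -0.39 to 0.066 for Casp1, -0.41 to 0.19 for Casp4 and -0.020 to 0.17 for Gsdmd. RAW alone minus CT26 alone ranged from -0.46 to 0.077 for Aim2. With 2 arrays per group precision was lowest for Nlrp3, whose 95% interval for the change in RAW without a block ran from -1.45 to 2.05.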

Other observations

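Genes downstream of the inflammasome and in the neighbouring necroptosis pathway also separated the lines grown alone. They were chosen after their values were seen. Of the 53 tested pathway genes, 20 were higher and 12 lower in RAW (limma, adjusted p under 0.05), against 17% and 17.6% of all genes. Some met the filter on dim genes through a single line, so the filter itself favoured their direction. Nlrp10, Naip5, Kcnk6 and Il18 did so only through RAW, and Ifi204, Casp12, Gbp2 and Gbp2b only through CT26. Il18 stood at 10.67 and 9.81 in RAW alone and at 5.01 and 5.82 in CT26 alone (log2), where the first array lay under the floor. Il1b, the other cytokine that caspase-1 matures, stood between 6.18 and 6.56 on all 8 arrays, with 6.37 ± 0.02 in RAW alone and 6.38 ± 0.08 in CT26 alone. Of 10 tested IL-1 and IL-18 family genes 4 were higher in RAW and 3 lower. The antagonist Il1rn and the receptor chain Il1rap were higher, by 2.67 and 0.80, while the receptor chains Il1r1 and Il18rap and the inhibitory receptor Sigirr were lower, with -2.65, -1.81 and -3.02. Ripk3, the kinase of necroptosis, stood at 10.80 and 10.45 in RAW alone and was at or near the floor in CT26 alone (5.49 and 5.20), whereas its substrate gene Mlkl was lower in RAW by -1.85 ± 0.15.

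The NAIP proteins are receptors that hand bacterial flagellin and needle proteins to NLRC4. Naip5 had 7.70 ± 0.06 in RAW grown alone (SD, n = 2) and lay under the floor on all 4 CT26 arrays, Naip6 had 7.33 ± 0.27 and 5.80 ± 0.01 in the lines grown alone, and both were called higher in RAW. Naip2 (8.41 ± 0.21 and 7.92 ± 0.15) was not called without a block (limma, adjusted p = 0.101) and was called higher with one (0.00388 shared, 0.00281 per line). Since Naip5 met the filter on dim genes only through RAW, the filter itself favoured its direction. These genes are near-identical copies, so their probe sets may not be fully separated.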
